A study of Homo sapiens with 12 samples.

Results

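Transcript levels of 2 human cancer cell lines grown in Matrigel were compared, A549, derived from a lung adenocarcinoma, and MDA-MB-231, derived from a breast carcinoma. The libraries were chosen by their titles, which name the line, the 3D culture and the sample number, and they made up 6 of the 12 RNA sequencing libraries of the study, 3 of each line. The other 6 libraries were of the same lines in 2D culture on plastic and were used here only to show which line differences were also present there. Cells of all groups were untreated and were kept in DMEM with 10% FBS, and RNA was taken on day 4 in Matrigel and at about 80% confluence in 2D. Each line is a single cell line, so a difference between them is one between these lines and not between lung and breast cancers. Nothing in the labels tells if a group's 3 libraries stem from independent cultures. Each p-value therefore reflects only how far these samples scatter, a spread that may be technical.

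Matrigel is an extract of basement membrane, the sheet of laminin, type IV collagen and proteoglycans on which epithelial cells rest, and cells embedded in it grow as clusters rather than as a flat layer. A549 is commonly used as a model of lung epithelium with an inactivated KEAP1, the protein that targets the transcription factor NRF2 for degradation. MDA-MB-231 is commonly used as a model of the mesenchymal type of breast cancer that lacks oestrogen and progesterone receptors. In both lines the RAS and MAP kinase pathway is activated by mutation, and the CDKN2A locus is deleted. These properties are background and were not measured here.

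Total expected counts, which are estimated numbers of reads per gene, were 9873213, 5609327 and 28171901 in the A549 libraries and 11624620, 19838477 and 19554124 in the MDA-MB-231 libraries. Levels are given as TMM-scaled counts relative to library size (CPM), for libraries 1, 2 and 3 of a line in that order. For 1 gene these are comparable between libraries of the same culture, but they are not comparable between genes. Matrigel and 2D libraries were scaled apart, so levels compare only roughly across cultures. The A549 libraries differed more among themselves, with a biological coefficient of variation of 0.176 against 0.0552 in MDA-MB-231. The mean fragment length was 134 to 141 bases in the A549 libraries and 181 to 188 bases in the MDA-MB-231 libraries, and the part of this gap in the line differences was not tested. Bulk RNA cannot tell fewer cells of a kind from less RNA per cell.

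RNAs that carry no poly(A) tail set the libraries of the lines apart and were counted separately. The labels name 1 library kit for all samples, a total RNA kit with removal of ribosomal RNA, which should keep such transcripts. RNase P RNA (RPPH1), the RNA subunit of the enzyme that trims transfer RNA, stood at 42128, 45497 and 36803 CPM in A549 and at 7.78, 10.1 and 13.7 CPM in MDA-MB-231. The 7SL RNA gene RN7SL3, part of the signal recognition particle, stood at 8225, 7774 and 7320 CPM against 2.04, 1.76 and 2.34 CPM. In both cases the libraries of a line lay close together and no library came near those of the other line.

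Over the whole class, RNase P and RNase MRP RNA took 5.18%, 6.13% and 5.04% of the counts in the A549 libraries and 0.0012%, 0.00157% and 0.00214% in the MDA-MB-231 libraries. Replication-dependent histone genes, whose messages end in a stem loop in place of a tail, took 0.809%, 0.911% and 1.1% against 0.018%, 0.0174% and 0.0189%. The shares of small nucleolar and Cajal body RNAs were 0.423%, 0.589% and 0.345% against 0.000742%, 0.000907% and 0.000957%. For these classes, for 7SL and 7SK, for spliceosomal RNAs, for miRNA hairpins, for MALAT1 with NEAT1 and for the class of Y, vault and telomerase RNAs, every A549 library lay above every MDA-MB-231 library. The exact two-sided permutation test gave p = 0.1 for each of these 8 classes (adjusted p = 0.1125), the smallest p that 3 against 3 libraries allow.

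Ribosomal RNA was the exception, with 16.5%, 4.72% and 3.53% of counts in A549 and 4.02%, 4.01% and 6.5% in MDA-MB-231, so that the groups overlapped (exact permutation p = 0.7). Its parts did not move together. The 18S gene RNA18SN1 was at 0 in the 3 A549 libraries and at 1821, 1874 and 3104 CPM in MDA-MB-231, whereas the precursor gene RNA45SN1 stood at 12258, 3584 and 4024 CPM in A549 and at 111, 112 and 176 CPM in MDA-MB-231. The 28S gene RNA28SN1 stood at 25416, 6245 and 2948 CPM against 5412, 5600 and 9392 CPM and did not pass (log2 fold change 0.76 ± 0.61 SE, adjusted p = 0.27). Each of these genes has near-identical copies with identical values here, so that the split of reads among them, and between mature and precursor forms, is uncertain.

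**Figure D1:**
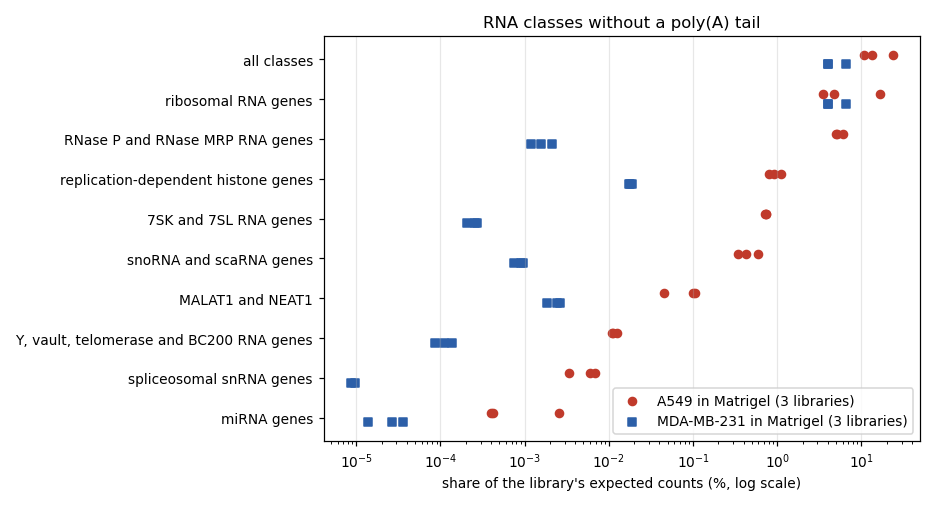
Share of each library's expected counts, in percent on a log axis, held by classes of RNA without a poly(A) tail, with 1 point per library in Matrigel. In all classes but ribosomal RNA, the A549 points (circles) lie to the right of the MDA-MB-231 points (squares), for example 5.04% to 6.13% against 0.0012% to 0.00214% for RNase P and RNase MRP RNA. The 1 MDA-MB-231 library with 0 spliceosomal RNA is not drawn.

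By gene, 181 members of these classes were tested, of which 170 were called higher in A549 and 5, the copies of 18S RNA, higher in MDA-MB-231. Among them were 95 of 95 small nucleolar and Cajal body RNA genes and 56 of 57 histone genes. HIST2H3PS2 was the histone gene that did not pass (0.16 ± 0.2 SE). HIST1H1C, a linker histone, stood at 819, 795 and 904 CPM against 28.5, 28.7 and 35.6 CPM, and HIST1H2BK, at 309, 307 and 360 CPM against 84.1, 82.4 and 88.7 CPM, showed the smaller gap. MALAT1, a nuclear RNA whose end is a triple helix, stood at 980, 869 and 346 CPM against 1.81, 6.96 and 10.7 CPM. Whether the cells or the preparation of the libraries set this class apart cannot be told apart from these files, and these genes are left out of the gene groups that follow.

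Of 14379 genes tested with edgeR's quasi-likelihood test, 11516 (80.1%) were called at an adjusted p below 0.05, 6135 (42.7%) higher in A549 and 5381 (37.4%) higher in MDA-MB-231. Without the classes that lack a tail, 11341 of 14198 genes (79.9%) were called, 5965 (42.0%) higher in A549 and 5376 (37.9%) higher in MDA-MB-231. A difference of at least 2-fold was called for 3918 and 3253 of these. The median log2 fold change, A549 over MDA-MB-231, was 0.11 over all genes tested and 0.09 without the tail-less classes, and counts in gene lists are to be read against these shares. The split of calls moved with the scale, and the tail-less classes took 49.3 percentage points more of the TPM in A549 than in MDA-MB-231. On log2(TPM + 1), limma called 3135 genes higher in A549 and 8993 higher in MDA-MB-231 (25.8% of calls higher in A549 against 53.3% on counts), with a median log2 fold change of -0.72. With tail-less genes removed and TPM rescaled, a setting chosen after seeing the data, the counts were 6056 and 5189 (53.9%) and the median 0.10. Among repeats of single genes, 12 reversed direction on the deposited TPM and 2 on the rescaled TPM. Below, the TPM scale means the deposited TPM unless stated. At 0 in all 3 MDA-MB-231 libraries were 382 of the 14198 genes, and 130 were at 0 in the 3 A549 libraries. Of 782 long non-coding genes tested, 392 were called higher in A549 and 223 lower (63.7% of calls higher in A549). Of 330 transcribed pseudogenes the counts were 195 and 57 (77.4%), against 5355 and 5084 of 13043 protein-coding genes (51.3%). The part of the library difference in these shares was not tested.

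**Figure D2:**
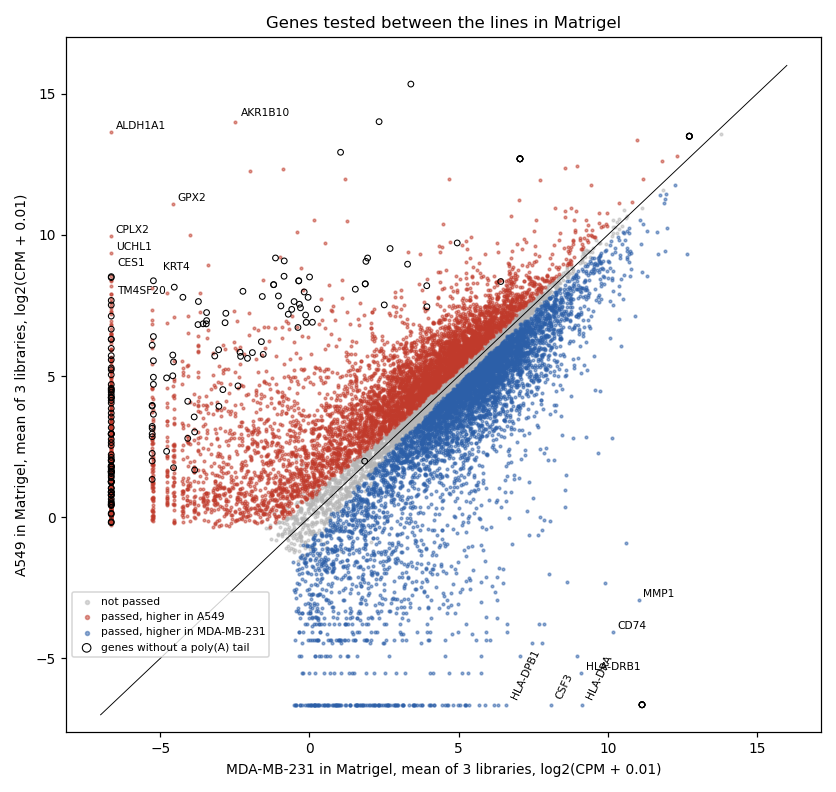
Mean level of each tested gene in MDA-MB-231 (x axis) and A549 (y axis) in Matrigel, as log2(CPM + 0.01) over 3 libraries, with the diagonal as the line of equal level. Points along the left and lower edges are genes at 0 in 1 line, among them ALDH1A1 and HLA-DRA, and open circles mark genes without a poly(A) tail, most of which lie above the diagonal.

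Among the genes with the largest differences, ALDH1A1, a retinaldehyde dehydrogenase, stood at 11733, 15014 and 11891 CPM in A549 and at 0 in the 3 MDA-MB-231 libraries, at least 219531-fold higher when 3 counts are allowed over the MDA-MB-231 group. The neuronal and neuroendocrine genes CPLX2, which encodes a complexin of synaptic vesicle fusion, and UCHL1, which encodes a ubiquitin hydrolase, were at 800 to 1106 CPM and 607 to 686 CPM in A549. Both were at 0 in MDA-MB-231. TM4SF20, a tetraspanin-like membrane protein gene, was at 253 to 434 CPM against 0. In the other direction, MMP1, interstitial collagenase, stood at 0, 0.188 and 0.175 CPM in A549 and at 2148, 2114 and 2029 CPM in MDA-MB-231 (log2 fold change -13.79 ± 0.25 SE, adjusted p = 1.2e-10). The metallothionein gene MT1E (77.3 to 84.5 CPM) and CHRDL1, an antagonist of bone morphogenetic proteins (69.1 to 76.9 CPM), were at 0 in A549, at least 1134-fold and 1036-fold lower.

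By abundance per length, the 6 genes with the largest excess in A549 TPM were AKR1B10, AKR1C1, AKR1C3, ALDH1A1, FTL and KRT18. Those with the largest excess in MDA-MB-231 were CALR, HMGA1, MMP1, MT2A, TUBB and VIM. Both rankings used the deposited TPM, of which tail-less classes took 49.3 percentage points more in A549. The rankings were not repeated on rescaled TPM. FTL, the light chain of ferritin, stood at 10755, 9009 and 11558 CPM in A549 against 2006, 2000 and 2037 CPM. CALR, a chaperone of the endoplasmic reticulum, stood at 360, 329 and 418 CPM against 2384, 2578 and 2594 CPM. HMGA1, an architectural chromatin protein gene, stood at 168, 104 and 149 CPM against 1821, 1938 and 2079 CPM. In each of these the lines did not overlap.

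**Figure D3:**
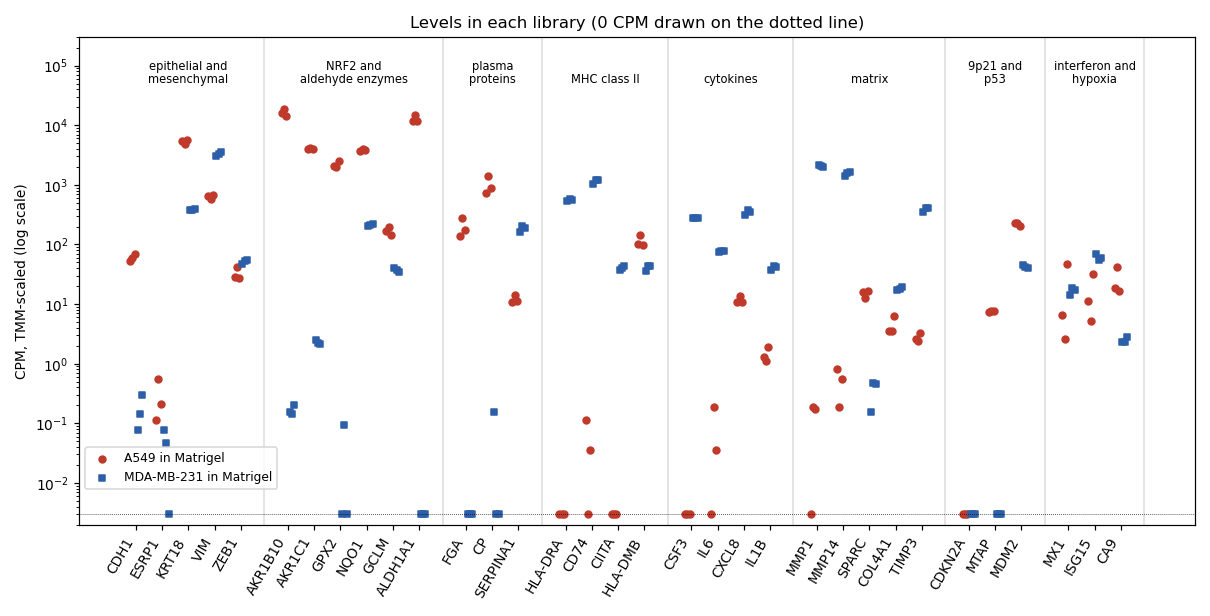
TMM-scaled CPM of selected genes in each library on a log axis, A549 as circles and MDA-MB-231 as squares, with libraries at 0 drawn on the dotted line. The lines separate for most genes, from AKR1B10, at 14362 CPM or more in A549, to MMP1, at 2029 CPM or more in MDA-MB-231, while the A549 libraries spread widely for MX1, ISG15 and CA9.

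The targets of NRF2, the transcription factor that induces genes against oxidants and electrophiles, were higher in A549 in nearly all members. Of 35 members, all tested, 33 were called higher in A549 and 0 in MDA-MB-231, with a median log2 fold change of 3.09 against 0.11 over all genes. AKR1B10, an aldo-keto reductase, stood at 16055, 18438 and 14362 CPM in A549 and at 0.157, 0.143 and 0.2 CPM in MDA-MB-231 (log2 fold change 16.50 ± 0.26 SE, adjusted p = 6.8e-11). GPX2, a glutathione peroxidase, stood at 2110, 1965 and 2538 CPM against 0, 0.0953 and 0 CPM, a ratio of pooled counts of 63959 with an exact 95% interval of 17705 to 528140. NQO1, a quinone reductase, had levels of 3743, 4076 and 3877 CPM against 205, 212 and 221 CPM (4.20 ± 0.12 SE).

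The group also held genes of glutathione and thioredoxin metabolism. GCLM, a subunit of the enzyme that makes the glutathione precursor, stood at 168, 199 and 145 CPM against 40.8, 37.2 and 34.9 CPM. The cystine transporter SLC7A11 (3.62 on the log2 scale) and the thioredoxin reductase TXNRD1 (2.18) were called in the same direction. KEAP1 did not pass (-0.13 ± 0.10 SE, adjusted p = 0.24), NFE2L2, the gene of NRF2, was higher in A549 by 0.39 ± 0.11 SE (adjusted p = 0.0088), and the ferritin heavy chain FTH1 missed the threshold (0.33, adjusted p = 0.051). AKR1C1 (4036 to 4120 CPM against 2.14 to 2.51) and AKR1C3 (3850 to 4374 against 23.8 to 26.6) are close paralogs of AKR1C2, and their split of reads is uncertain.

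Promoters of 3 members are shown because NRF2 acts through a short element, the antioxidant response element, whose core is written here as TGACNNNGC. The sequences are the 250 bases before the gene start from RefSeq on build GRCh38.p14, which is not the build of the deposited counts, each on the minus strand, for GPX2 at chr14:64942746-64942995, for ME1, malic enzyme, at chr6:83431052-83431301 and for GCLM at chr1:93909431-93909680. Capitals mark the core on either strand.
GPX2: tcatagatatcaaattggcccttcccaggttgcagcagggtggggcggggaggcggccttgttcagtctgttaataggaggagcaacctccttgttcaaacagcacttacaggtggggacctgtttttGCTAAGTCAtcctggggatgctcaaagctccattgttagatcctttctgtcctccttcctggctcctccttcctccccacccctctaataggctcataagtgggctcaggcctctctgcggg
ME1: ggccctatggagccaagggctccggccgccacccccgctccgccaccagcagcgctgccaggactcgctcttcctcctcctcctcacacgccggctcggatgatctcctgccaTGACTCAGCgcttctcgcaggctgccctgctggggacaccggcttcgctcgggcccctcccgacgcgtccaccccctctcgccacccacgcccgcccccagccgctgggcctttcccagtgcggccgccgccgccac
GCLM: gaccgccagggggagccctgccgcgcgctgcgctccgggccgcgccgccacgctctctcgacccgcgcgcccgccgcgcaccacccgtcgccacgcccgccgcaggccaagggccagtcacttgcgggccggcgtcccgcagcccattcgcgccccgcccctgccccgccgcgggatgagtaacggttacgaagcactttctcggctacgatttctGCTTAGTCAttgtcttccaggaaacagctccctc
The core began 122 bases before the gene start in GPX2, 137 in ME1 and 34 in GCLM. Of 35 members, 25 had at least 1 promoter in the RefSeq table, 31 promoters in all, and 9 of these 31 (29.0%) held the core, against 3830 of all 35116 promoters of the same length in the table (10.9%). The 9 belong to 8 members, 1 of which is KEAP1, which was not called. The match in ME1 also contains the letters of an AP-1 element, TGANTCA. A match of letters is a description and not a binding site.

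Other enzymes of drug and aldehyde metabolism were higher in A549 in 22 of 31 tested members of 34 and lower in 9 (median log2 fold change 2.71). Besides ALDH1A1, the carboxylesterase CES1 stood at 329, 393 and 390 CPM against 0 in MDA-MB-231, at least 6773-fold higher. ALDH3A1, a further aldehyde dehydrogenase, stood at 5204 ± 698 CPM (SD, n = 3) against 0.53 ± 0.25 CPM. CYP4F11, a cytochrome P450, was at 111 ± 14.6 CPM against 0. Of the 9 members higher in MDA-MB-231, CYP1A1, the cytochrome induced through the aryl hydrocarbon receptor, differed most, at 0.695, 1.13 and 1.89 CPM against 32.1, 32.9 and 32 CPM (-4.45 ± 0.23 SE).

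Genes of endodermal and liver-type identity were mostly higher in A549. Of 22 transcription factors of endoderm and lung, 19 were tested, and 13 were called higher in A549 and 4 in MDA-MB-231 (median 3.35). HNF4A, a nuclear receptor of liver and gut, stood at 30.4, 29 and 32.7 CPM in A549 and at 0 in MDA-MB-231, at least 569-fold higher. FOXA1, a pioneer factor, was at 41.3 ± 5.5 CPM against 0.0484 ± 0.048 CPM (SD, n = 3). Its relative FOXA2 did not pass, at 21.8, 19.8 and 19.7 CPM against 20.2, 24 and 22.9 CPM (adjusted p = 0.31), but was called lower in A549 on the TPM scale (-1.02), and GATA6 was higher in MDA-MB-231 (-1.80 ± 0.20 SE). NKX2-1, the factor of lung epithelium, was near 0 in both lines, with 0.232, 0 and 0 CPM against 0, 0.0477 and 0.15 CPM.

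Genes of plasma proteins made by liver followed, with 20 of 28 members tested, 19 called higher in A549 and 1 higher in MDA-MB-231. Their median log2 fold change was 9.19, or 7.39 when members with under 4 counts in a line are set to their bound or counted ratio, and 11 of the 28 were at 0 in MDA-MB-231. Fibrinogen A (FGA) stood at 137, 280 and 175 CPM against 0, at least 3227-fold higher, and ceruloplasmin (CP), a copper-carrying oxidase, at 743, 1425 and 882 CPM against 0.157, 0 and 0 CPM. Library 2 of A549 was highest in 12 of the 20 members (60%), against 40.1% of all genes tested outside the classes without a poly(A) tail. SERPINA1, the inhibitor of neutrophil elastase, was the exception, at 10.8, 14.1 and 11.1 CPM against 164, 203 and 188 CPM (-3.98 ± 0.14 SE). Complement genes were divided, with 10 of 17 higher in A549 and 6 higher in MDA-MB-231, C3 among the latter (207, 164 and 266 CPM against 565, 633 and 643 CPM).

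Markers of the labelled tissues were present only in part. Of 27 alveolar and airway genes, 12 were tested, 8 called higher in A549 and 2 in MDA-MB-231. AGR2, a disulphide isomerase of mucus-secreting cells, stood at 1162, 1692 and 1203 CPM in A549 against 21.3, 24.6 and 21.2 CPM, and the gel-forming mucin gene MUC5B at 54.6 ± 11 CPM against 2.46 ± 0.43 CPM (SD, n = 3). The surfactant protein genes SFTPB and SFTPC were at 0.232 CPM or less in every library, so that surfactant expression of alveolar type II cells was not detectable at this depth. Of 20 mammary genes, 12 were tested, 4 called higher in A549 and 7 in MDA-MB-231. The receptors ESR1 and PGR were at or below 0.753 CPM in all 6 libraries. NGFR, a marker of basal cells, was higher in MDA-MB-231 (0.116, 0.376 and 0.175 CPM against 54, 60.5 and 65.4 CPM).

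The epithelial and mesenchymal genes did not split cleanly by line. E-cadherin (CDH1), the adhesion protein of epithelial junctions, stood at 53.5, 60.4 and 68.3 CPM in A549 and at 0.0786, 0.143 and 0.299 CPM in MDA-MB-231 (8.30 ± 0.25 SE, adjusted p = 8.5e-10). Of 39 junction genes, 32 were tested, and 20 were called higher in A549 and 8 in MDA-MB-231 (median 1.15), or 13 and 14 when the deposited TPM values were tested. On TPM rescaled without tail-less genes the counts were 21 and 7 (median 0.87). The tight junction genes CLDN7 (-3.70) and MAL2 (-4.31) were among the 8. The splicing factor gene ESRP1 and GRHL2, a factor that maintains epithelium, were at 0.565 CPM or less in every library of both lines. EPCAM stood at 13.2, 16.6 and 8.63 CPM against 7.54, 7.86 and 8.33 CPM, and its call (0.61 ± 0.22 SE, adjusted p = 0.024) was lost in 4 of the 6 fits that left out 1 library and turned on the TPM scale (-0.31).

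Vimentin (VIM), the intermediate filament of mesenchymal cells, stood at 658, 590 and 665 CPM in A549 and at 3106, 3321 and 3507 CPM in MDA-MB-231 (-2.38 ± 0.12 SE). Of 26 mesenchymal genes, 20 were tested, 7 called higher in A549 and 13 in MDA-MB-231 (median -1.49). SNAI2, a repressor of E-cadherin, stood at 0.116, 0 and 0.316 CPM against 20.8, 22.7 and 22.5 CPM, and ZEB1, a repressor of the same gene, at 28.6, 41.6 and 27.9 CPM against 46.6, 52.9 and 54.5 CPM (-0.68 ± 0.16 SE). N-cadherin (CDH2) went the other way, at 39.2, 46.5 and 43.8 CPM in A549 against 0.0786, 0.238 and 0.249 CPM, as did SPARC, a matrix glycoprotein (16, 12.6 and 16.8 CPM against 0.157, 0.477 and 0.449 CPM). Cadherin 11 (CDH11) stood at 0, 0.188 and 0 CPM against 175, 225 and 217 CPM. The simple-epithelium keratins KRT8 and KRT18 were higher in A549 by 3.48 and 3.80 on the log2 scale, at 4805 to 6046 CPM and 4767 to 5675 CPM, whereas KRT19 was slightly higher in MDA-MB-231 (-0.42 ± 0.12 SE). In total 9 of 12 tested keratins were higher in A549 and 3 in MDA-MB-231.

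Antigen presentation genes were higher in MDA-MB-231 in 29 of 32 tested members of 33 and in A549 in 3 (median -3.27). HLA-DRA, a chain of the MHC class II molecule, was at 0 in the 3 A549 libraries and at 545, 578 and 557 CPM in MDA-MB-231, at least 7954-fold higher. CD74, the invariant chain that guides class II molecules, stood at 0.116, 0 and 0.0351 CPM against 1050, 1187 and 1206 CPM. CIITA, the transactivator on which class II transcription depends, was at 0 in A549 and at 37, 40.8 and 44.1 CPM in MDA-MB-231. The peptide-exchange chain HLA-DMB was an exception within class II, at 101, 145 and 97.3 CPM in A549 against 35.7, 43.1 and 43.8 CPM (1.47 ± 0.16 SE).

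In class I, the log2 fold change was -7.18 ± 0.29 SE for HLA-B and -1.48 ± 0.14 SE for the shared light chain B2M. The values for HLA-B, HLA-DRB1 and the other HLA paralogs are uncertain because these genes share reads. CD274, the gene of the checkpoint ligand PD-L1, stood at 1.51, 1.51 and 1.37 CPM against 32, 28.9 and 28 CPM. Of 13 leukocyte markers 7 were tested, with 4 called higher in MDA-MB-231, 1 higher in A549 and 2 not passing. The member higher in A549 was ITGAM, an integrin chain of myeloid cells, at 3.36, 1.88 and 4.35 CPM against 0.0786, 0 and 0 CPM (adjusted p = 3.1e-06). The summed level of the list was 32 to 48.1 CPM in A549 and 895 to 962 CPM in MDA-MB-231. That list holds HLA-DRA and LAPTM5 (0, 0 and 0.0702 CPM against 135, 135 and 132 CPM), while PTPRC, the marker that defines leukocytes, was at 0.0998 CPM or less in every library.

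Cytokine genes were higher in MDA-MB-231 in 24 of 31 tested members of 37 and higher in A549 in 7 (median -3.58). CSF3, which encodes the granulocyte growth factor, was at 0 in A549 and at 274, 278 and 278 CPM in MDA-MB-231, at least 3918-fold higher. IL6 stood at 0, 0.188 and 0.0351 CPM against 75.9, 79.2 and 76.4 CPM. CXCL8, a neutrophil attractant, stood at 11, 13.7 and 10.9 CPM against 318, 378 and 350 CPM (-4.91 ± 0.14 SE), and IL1B at 1.27, 1.13 and 1.89 CPM against 37.8, 43.4 and 42.7 CPM. A related neutrophil attractant, CXCL5, had the opposite pattern, at 127, 186 and 110 CPM in A549 against 0, 0.0477 and 0.0998 CPM. Regulators of NF-kB, the factor that drives many of these genes, formed a list that also holds some of its targets. Members were higher in MDA-MB-231 in 12 and in A549 in 4 of 19 tested. ICAM1, a leukocyte adhesion receptor, was at -5.98 ± 0.14 SE and TNFAIP2 at 2.42 ± 0.17 SE.

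Interferon-stimulated genes varied among the A549 libraries. Of 42 tested members of 43, 12 were called higher in A549 and 24 in MDA-MB-231 (median -1.01). MX1, an antiviral GTPase, stood at 6.49, 2.64 and 47.5 CPM in A549 and at 14.5, 18.4 and 17.5 CPM in MDA-MB-231, and did not pass (0.36 ± 0.65 SE, adjusted p = 0.62). Library 3 of A549 was the highest of the 3 in 36 of the 38 members with a mean of at least 1 CPM there, against 32.6% of all genes outside the tail-less classes. Without that library 11 members were higher in A549 and 27 in MDA-MB-231 (median -1.66), and without library 2 the counts were 14 and 22 (median -0.49). OAS1, a sensor of double-stranded RNA, was higher in A549 in each library (111, 118 and 160 CPM against 2.51, 3.72 and 2.99 CPM), and BST2, a membrane tether of virus particles, was lower in each (1.16, 0.376 and 1.89 CPM against 159, 147 and 160 CPM).

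**Figure D4:**
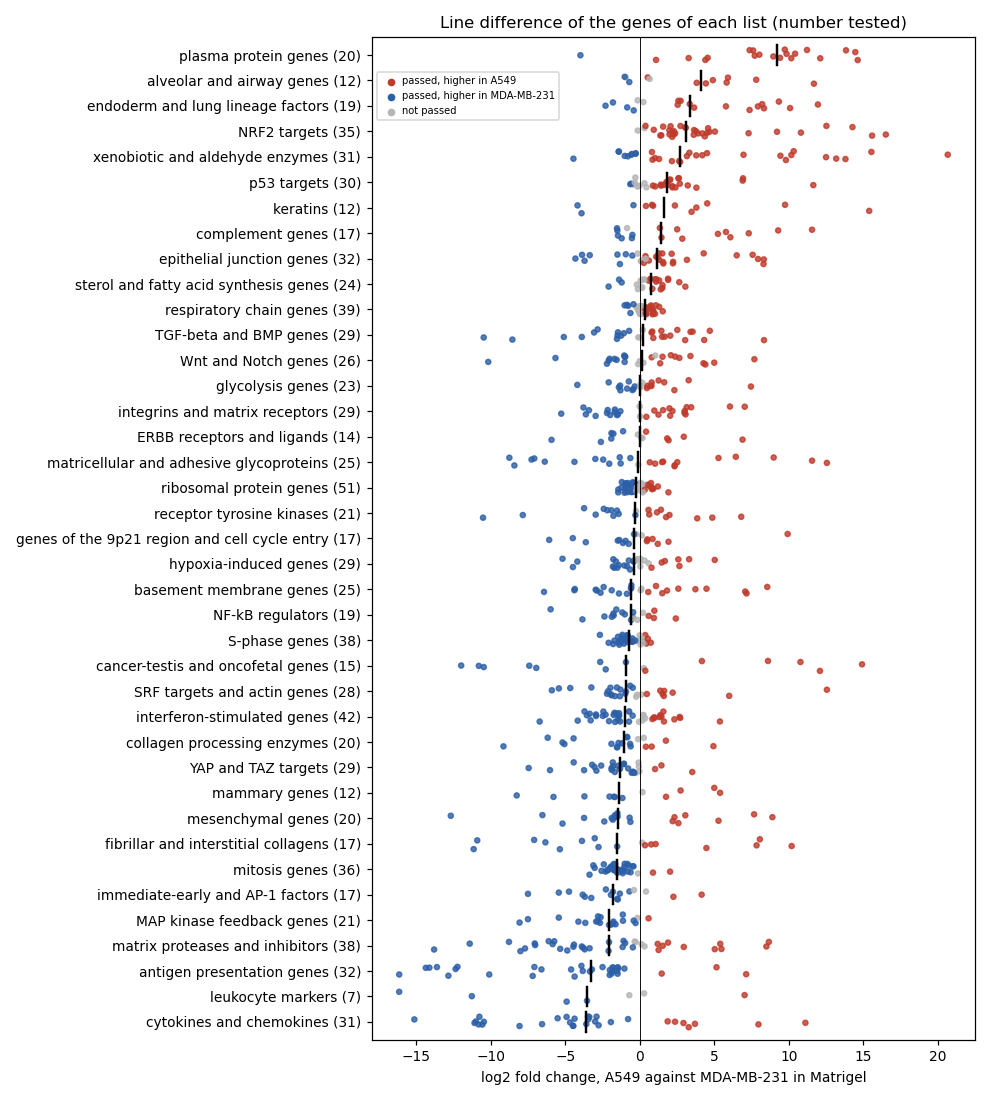
Log2 fold change of A549 over MDA-MB-231 in Matrigel for the tested genes of each list, with the number tested in brackets, the median as a black bar and grey points for genes that did not pass. Plasma protein genes (median 9.19) and NRF2 targets (3.09) lie to the right, and antigen presentation genes (-3.27) and cytokines (-3.58) to the left.

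Readouts of growth factor and mechanical signalling were mostly higher in MDA-MB-231. Among feedback and output genes of the MAP kinase pathway, 19 of 21 were called higher in MDA-MB-231 and 1 in A549 (median -2.06). The list includes the cytokine gene IL11. DUSP6, the phosphatase that switches off ERK, stood at 32.3, 49.1 and 35.7 CPM in A549 and at 234, 258 and 244 CPM in MDA-MB-231 (-2.67 ± 0.15 SE, adjusted p = 7e-08). FOSL1, an AP-1 subunit, stood at 2.55, 1.13 and 2.14 CPM against 331, 404 and 392 CPM (-7.50 ± 0.20 SE). ETV4, an ETS factor, was the member higher in A549, at 128, 103 and 131 CPM against 77.1, 82 and 81.8 CPM, with the opposite direction on the TPM scale (-0.42). Immediate-early and AP-1 factors were higher in MDA-MB-231 in 13 and in A549 in 2 of 17 tested, and the 2 were FOS (2.26) and NR4A1 (4.15).

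Targets of YAP and TAZ, co-activators that respond to cell shape and stiffness, were higher in MDA-MB-231 in 22 of 29 and in A549 in 3 (median -1.32). CYR61, a secreted matrix protein, stood at 5.56, 4.89 and 4.14 CPM against 817, 819 and 834 CPM (-7.45 ± 0.15 SE), and its relative CTGF at 21.4, 25.6 and 17.9 CPM against 179, 168 and 173 CPM. NF2, an upstream inhibitor, was higher in A549 (3.52 ± 0.17 SE). Actin and SRF target genes were divided 8 to 17, with MYL9, a myosin light chain, at -5.89 ± 0.18 SE and villin (VIL1), an actin bundler of microvilli, at 50.7, 48.6 and 41.7 CPM in A549 against 0. Receptors and ligands of the ERBB family showed no common direction, with 5 of 14 higher in A549 and 6 in MDA-MB-231. ERBB3 was higher in A549 (30.7, 32 and 31.2 CPM against 3.54, 3.96 and 4.49 CPM) and the ligand HBEGF in MDA-MB-231 (1.16, 1.51 and 1.75 CPM against 90.3, 97.8 and 97.4 CPM). ERBB2 did not pass (76.5, 67.6 and 89.9 CPM against 65, 68.9 and 72.4 CPM, adjusted p = 0.17), but was called higher in A549 without library 2 of A549 (0.27) and lower on the TPM scale (-0.71).

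Genes that cut or build the extracellular matrix differed in both directions. Of 44 proteases and inhibitors, 38 were tested, 10 called higher in A549 and 24 in MDA-MB-231 (median -2.07). MMP14, the membrane-bound collagenase, stood at 0.811, 0.188 and 0.561 CPM in A549 and at 1399, 1579 and 1665 CPM in MDA-MB-231 (-11.40 ± 0.23 SE). The inhibitor TIMP3 was higher in MDA-MB-231 as well, at 2.55, 2.45 and 3.33 CPM against 356, 408 and 409 CPM. Matrilysin (MMP7), a protease of epithelial cells, was higher in A549, at 56.5, 67.8 and 65.4 CPM against 0.157, 0.143 and 0.2 CPM. The plasminogen activator PLAU was higher in MDA-MB-231 (-4.45 ± 0.19 SE).

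Collagens also differed in both directions, with 7 of 17 tested higher in A549 and 9 in MDA-MB-231. COL5A2 stood at 427, 669 and 685 CPM in A549 against 0.471, 0.715 and 0.299 CPM, whereas COL5A1, the other common chain of type V collagen, stood at 2.78, 1.69 and 3.16 CPM against 110, 114 and 120 CPM. Fibronectin (FN1) was higher in A549, at 2875, 3418 and 4220 CPM against 624, 741 and 724 CPM, and the de-adhesive glycoprotein tenascin C (TNC) was higher in MDA-MB-231 (-8.41 ± 0.18 SE). Osteopontin (SPP1) stood at 497, 451 and 535 CPM in A549 against 0.157, 0.0477 and 0.0499 CPM. Enzymes that process collagen were higher in MDA-MB-231 in 14 of 20 tested and in A549 in 4.

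Basement membrane genes, whose products resemble what Matrigel supplies, were higher in A549 in 10 of 25 tested and in MDA-MB-231 in 13. The laminin chain genes LAMA3 and LAMB3 were higher in MDA-MB-231, with a log2 fold change of -2.95 and -2.63. Nidogen 1 (NID1) was seen in A549 (3.13, 3.01 and 4.6 CPM) and had 1 count over the 3 MDA-MB-231 libraries. Integrins and other matrix receptors were divided 14 to 13 among 29 tested. ITGAV was higher in A549 (3.15 ± 0.20 SE) and the fibronectin receptor chain ITGA5 in MDA-MB-231 (-2.96 ± 0.10 SE). The shared chain ITGB1 did not pass, at 1148, 1971 and 1581 CPM against 1568, 1596 and 1555 CPM (adjusted p = 0.98; called lower in A549 on the TPM scale, -0.99), nor did ITGB4, the partner of ITGA6 (adjusted p = 0.9). ITGA6 was higher in MDA-MB-231 (131, 201 and 172 CPM against 550, 525 and 523 CPM).

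Targets of p53 were higher in A549 in 21 of 30 members, all tested, and higher in MDA-MB-231 in 2, the latter being PLK3 and POLH (median 1.81). The call of PLK3 was lost without library 1 or 3 of MDA-MB-231. MDM2, the ubiquitin ligase of p53, stood at 229, 233 and 205 CPM against 44.9, 41.6 and 39.7 CPM (2.40 ± 0.11 SE, adjusted p = 1.2e-08). EDA2R, a death receptor gene, stood at 27, 22 and 25.3 CPM against 0. CDKN1A, the inhibitor of cyclin-dependent kinases, overlapped between the lines (190, 123 and 222 CPM against 139, 144 and 148 CPM, 0.32 on the log2 scale, adjusted p = 0.12). Without library 2 of A549 it was called higher in A549 (0.52), and on the TPM scale lower (-0.71). On chromosome arm 9p, CDKN2A and CDKN2B were at 0 in all 6 libraries. Their neighbour MTAP, an enzyme of methionine salvage, stood at 7.3, 7.53 and 7.72 CPM in A549 and at 0 in MDA-MB-231, at least 136-fold higher.

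Most mitosis genes and a majority of S-phase genes were higher in MDA-MB-231. In mitosis genes the counts were 33 of 36 higher in MDA-MB-231 and 2 in A549 (median -1.53). In S-phase genes 25 of 38 were higher in MDA-MB-231, 5 in A549, and 8 did not pass (median -0.70). MKI67, a chromosome-surface protein of cycling cells, stood at 184, 102 and 138 CPM in A549 against 574, 742 and 761 CPM (-2.29 ± 0.20 SE), and CDC20, an activator of the anaphase complex, at 42.9, 29.6 and 40.4 CPM against 301, 344 and 341 CPM. HMMR, a spindle protein gene (2.04 ± 0.14 SE), and ASPM, a spindle pole protein gene (0.89 ± 0.16 SE), were the members higher in A549, ASPM with no call on the TPM scale (0.062). PCNA, the replication clamp, was slightly higher in A549 (254, 274 and 272 CPM against 197, 185 and 200 CPM), but lower on the TPM scale (-0.55). Library 3 of A549 was highest in 28 of the 38 S-phase members (73.7%, against 32.6% of all genes tested outside the classes without a poly(A) tail).

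Hypoxia and metabolic genes were mixed. Of 29 hypoxia-induced genes 7 were called higher in A549 and 15 in MDA-MB-231 (median -0.41), and library 2 of A549 was the highest of its group in 25 of them, against 40.1% of all genes outside the tail-less classes. Without library 2 the counts were 8 and 19. CA9, a carbonic anhydrase, stood at 18.8, 42.5 and 16.7 CPM in A549 against 2.28, 2.29 and 2.84 CPM, so that library 2 was more than 2-fold above the others of its line while the lines did not overlap. VEGFA, the vascular growth factor, stood at 12.6, 13.9 and 13.8 CPM against 283, 311 and 309 CPM (-4.48 ± 0.11 SE). Monocarboxylate carriers differed in kind, SLC16A1 being higher in A549 (54.2, 76.8 and 60.5 CPM against 0.314, 0.334 and 0.399 CPM) and SLC16A3 in MDA-MB-231 (97.4, 130 and 111 CPM against 473, 459 and 497 CPM). Glycolysis genes as a list split 10 to 10 of 23.

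Genes of sterol and fatty acid synthesis were higher in A549 in 14 of 24 and in MDA-MB-231 in 3 (median 0.79), and in 7 and 9 on the TPM scale, where the median changed sign (-0.18). On TPM rescaled without tail-less genes the counts were 15 and 3 (median 0.83). SCD, the stearoyl desaturase, stood at 697, 581 and 724 CPM against 75.9, 79.3 and 84.9 CPM. Respiratory chain genes were higher in A549 in 21 and in MDA-MB-231 in 5 of 39 (median 0.34), and in 1 and 27 on the TPM scale (median -0.76). On the rescaled TPM the counts were 22 and 5 (median 0.26). Of the calls on counts, 5 reached 2-fold. Ribosomal protein genes were higher in A549 in 10 and in MDA-MB-231 in 23 of 51 (median -0.23). The mitochondrial ribosomal RNAs RNR1 and RNR2 were both higher in MDA-MB-231, RNR2 at 896, 580 and 460 CPM in A549 against 5940, 6567 and 6909 CPM (-3.33 ± 0.23 SE). The kit named in the labels removes ribosomal RNA, and the part of library preparation in this gap was not tested.

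Markers of cells other than the named lines were low or belonged to few genes. Of 7 erythroid markers 0 passed the filter, with a summed level of at most 0.175 CPM. Endothelial markers summed to 0.565 to 1.27 CPM in A549 and 71.3 to 82.7 CPM in MDA-MB-231, where ROBO4 (53.9, 59.1 and 64.7 CPM) and KDR (11, 11.5 and 11.6 CPM) made up most, while CDH5, which defines endothelium, was at 0.421 CPM or less in every library. Fibroblast markers summed to 12.2 to 13.2 CPM and 10.4 to 11 CPM, with DCN at 0 in all 6 libraries. The Matrigel cultures hold no added cells by the labels, and the part of any other cell type in the results was not tested.

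The same comparison in 2D called 12860 of 14609 genes (88.0%), 6469 (44.3%) higher in A549 and 6391 (43.7%) higher in MDA-MB-231. Of 13894 genes tested in both cultures, 8699 were called with the same sign in both and 1279 with opposite signs. Whether a line difference depends on the culture was tested in 1 fit of all 12 libraries, in which 8582 of 15304 genes (56.1%) passed. All 1279 genes with opposite signs passed the test of the difference. This was close to given, since they had been called in opposite directions in the same libraries. Of 1095 genes called only in Matrigel 939 passed, and of 2272 genes called only in 2D 1515 passed. Of the 8699 genes with the same sign 4455 passed it, 2917 of them with the larger difference in Matrigel. The 2D and Matrigel comparisons share no library.

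Some groups differed between cultures in their counts, and their passing members are to be read against 56.1% of all genes. Interferon-stimulated genes were higher in MDA-MB-231 in 34 and in A549 in 4 of 42 tested in 2D, against 24 and 12 in Matrigel. Without library 3 of A549 in Matrigel, the highest of its group in most members, the Matrigel counts were 27 and 11. With all libraries 34 of 43 members passed the test of the difference. S-phase genes were higher in A549 in 23 and in MDA-MB-231 in 14 of 38 in 2D, against 5 and 25 in Matrigel, with 28 of 38 passing. Ribosomal protein genes went from 31 and 13 of 51 in 2D to 10 and 23 in Matrigel, with 43 passing. Actin and SRF target genes went from 16 and 9 of 27 in 2D to 8 and 17 of 28 in Matrigel. With A549 first, epithelial junction genes went from 15 and 15 in 2D to 20 and 8 in Matrigel. Factors of endoderm and lung went from 9 and 7 to 13 and 4. Alveolar and airway genes went from 4 and 6 to 8 and 2, and complement genes from 6 and 9 to 10 and 6. NRF2 targets changed little in their counts. They were higher in A549 in 34 and in MDA-MB-231 in 1 of 35 in 2D, against 33 and 0 in Matrigel. Of the 35 members 19 passed, near the share of all genes. The 1 member higher in MDA-MB-231 in 2D was NFE2L2 (-0.79 in 2D, 0.39 in Matrigel, both on the log2 scale).

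Some line differences had opposite directions in the cultures. COL5A1 stood at 145, 157 and 165 CPM in A549 and at 67, 68.4 and 59.4 CPM in MDA-MB-231 in 2D, and at 2.78, 1.69 and 3.16 CPM against 110, 114 and 120 CPM in Matrigel, so that the line with the higher level changed. PMEPA1, a target and inhibitor of TGF-beta signalling, stood at 228, 240 and 255 CPM against 38.9, 42.6 and 39.3 CPM in 2D and at 10.2, 9.98 and 9.02 CPM against 39.5, 44.8 and 42.1 CPM in Matrigel. TSPAN8, a tetraspanin, was at 0 in A549 in 2D against 4.35, 4.83 and 5.67 CPM, and in Matrigel stood at 6.26, 10.5 and 6.98 CPM against 0.786, 0.81 and 0.748 CPM. In each of these the 3 libraries of a line lay on the same side of the other line in either culture. Genes described above also changed direction, among them FN1 (log2 fold change 2.33 in Matrigel, -1.62 in 2D) and EPCAM (0.61 and -2.55). The same held for ERBB3 (2.95 and -1.26), FOS (2.26 and -0.71) and HLA-DMB (1.47 and -1.78).

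**Figure D5:**
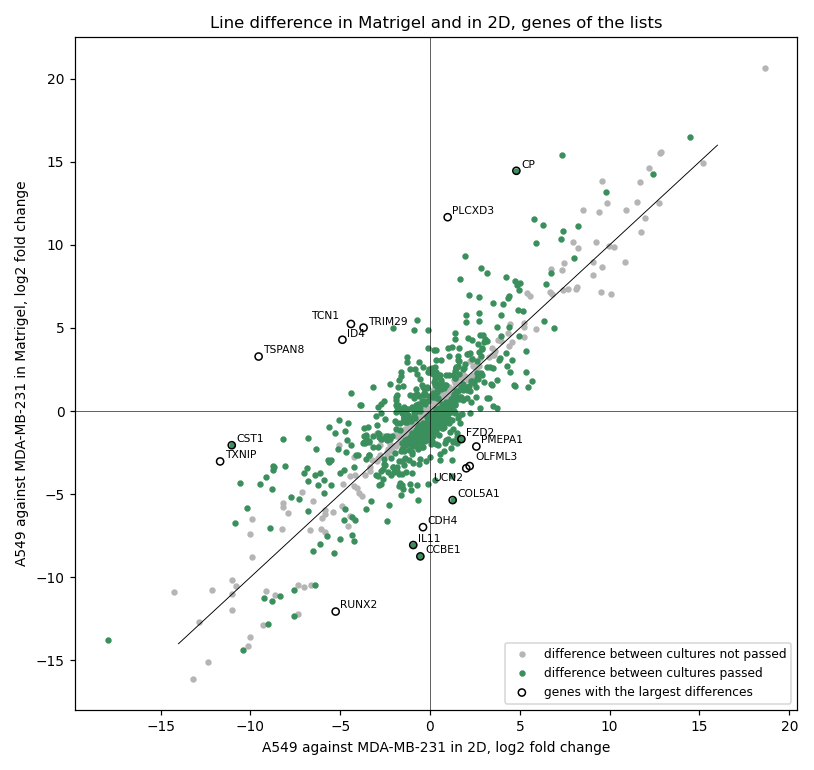
Log2 fold change of A549 over MDA-MB-231 in 2D (x axis) and in Matrigel (y axis) for genes of the lists, green where the difference between cultures passed the test, with the diagonal as the line of equal difference. Open circles are the genes with the largest differences between cultures that were tested in 2D, such as TSPAN8 in the upper left and COL5A1 in the lower right.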

How the data were processed

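Per the submitters' processing notes the counts come from RSEM on human genome build hg19. The aligner, annotation release, RSEM version and strand setting: not given in the sources used here. The authors deposited for each library a table of expected counts, which apportion ambiguous reads by estimation, for 27968 gene symbols. The deposited TPM values, which take transcript length and depth into account, served for the rule on abundant genes and for an alternative. Gene length and effective length as deposited gave the mean fragment length, over genes of at least 2000 bases.

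Expected counts were rounded, filtered with filterByExpr and scaled with TMM (factors 0.875 to 1.1), and the 6 Matrigel libraries were fitted alone by the quasi-likelihood test of edgeR (version 4.0.16 under R 4.3.3). Tests are two-sided, with Benjamini-Hochberg adjustment over all genes tested and a threshold of 0.05. The 2D libraries were fitted alone in the same way, and the difference between cultures was fitted over all 12 libraries. SE is the absolute log2 fold change divided by the square root of the F statistic of the quasi-likelihood test. For genes near 0 in a line it can be smaller than counting error alone. A group at 0 was set to 3 counts over its 3 libraries for a lower bound, and ratios against 1 to 3 counts carry exact 95% intervals, both for counting error only. The script was tested on simulated data in which few genes differed between the lines. Most genes were called here, so that test does not bear on how the scaling works in these data.

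The 42 lists (1104 genes, of which 947 were tested), the classes without a poly(A) tail (2504 symbols) and the named genes were chosen with earlier results of these data known. Named outside those classes, non-coding genes and pseudogenes were, per direction, the 8 largest fold changes at an average log2 CPM of at least 3 without overlap of groups, the 6 largest differences in mean TPM among genes at least 4-fold apart, the set members of each list with its 2 largest fold changes per direction, the 5 largest differences between cultures and the 4 largest opposite differences. The text leaves out some of these, and names further list members that were picked after their values were seen. All pairs of libraries in a group differed by more than counting noise (chi-square per degree of freedom 4.27 to 150).

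Alternatives were RLE scaling, DESeq2 (1.42.0), no filter, a minimum of 1 CPM in 3 libraries, all 12 libraries, the replicate number as a block, limma (3.58.1) on log2(TPM + 1), voom with 1 variance per line, removal of tail-less genes, removal of a gene-length trend, a log2 threshold of 1 and each library left out. After the data were seen, limma on TPM rescaled without tail-less genes was added. Promoters are RefSeq sequences on GRCh38.p14.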

Additional observations from a re-analysis of the deposited data

Results flagged for a closer look

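The line difference (A549 over MDA-MB-231, log2) differed between Matrigel and 2D for the genes named here, by the test of that difference in edgeR's quasi-likelihood fit of all 12 libraries. The genes were chosen for this size, so their values are a description. That fit pools groups of unequal spread, so its p-values may be too small. Levels in Matrigel and in 2D were scaled apart. More to the A549 side in Matrigel were NOX1, an NADPH oxidase gene, by 12.04 (adjusted p = 4.8e-05), PLCXD3 by 10.88 (4.4e-08), CP by 9.62 (5.9e-05), CST1, a cystatin gene, by 8.90 (3.7e-13) and TXNIP, an inhibitor of thioredoxin, by 8.55 (1.0e-11). NOX1 stood at 38.3, 47.6 and 53.2 CPM in A549 in Matrigel and at 0.119, 0.172 and 0.122 CPM in 2D, and MDA-MB-231 had at most 0.144 CPM in either culture. TXNIP stood at 37.4, 52.1 and 38.1 CPM in A549 in Matrigel against 0.119, 0.115 and 0 CPM in 2D, and in MDA-MB-231 at 343, 348 and 340 CPM against 268, 297 and 280 CPM.

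More to the MDA-MB-231 side in Matrigel were CCBE1, a secreted collagen-binding protein gene (-8.28, adjusted p = 5.4e-11), IL11 (-7.17, 3.7e-13), RUNX2, a factor of bone formation (-7.13, 4.9e-06), CDH4 (-6.65, 8.3e-11) and COL5A1 (-6.65, 3.7e-13). IL11 stood at 48, 50.2 and 50.6 CPM in A549 in 2D and at 0.232, 0.188 and 0.386 CPM in Matrigel, while MDA-MB-231 stood at 96.1, 95.6 and 92.2 CPM and at 88, 93.3 and 86.3 CPM.

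Called in opposite directions in the cultures, and higher in A549 in Matrigel, were TCN1, a vitamin B12 binder gene (9.56, adjusted p = 4.4e-09), ID4 (9.07, 1.2e-08), TRIM29 (8.67, 4.5e-09) and TSPAN8 (12.54, 1.3e-09). Higher in MDA-MB-231 in Matrigel and in A549 in 2D were OLFML3 (-5.58, 9.7e-08), PMEPA1 (-4.78, 3.7e-13), UCN2 (-5.48, 6.7e-08) and FZD2, a Wnt receptor gene (-3.49, 7.8e-11). Genes near 0 in a group, such as TCN1 in A549 in 2D, have fitted differences that depend on the prior count.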

How the results depend on the processing

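Calls on single genes kept direction and side of the threshold in 4481 of 4564 repeats over the alternatives, and 32 repeats reversed. A log2 threshold of 1 left 6072 genes, 3426 higher in A549 and 2646 in MDA-MB-231. The TPM scale gave 3135 and 8993, and reversed BRCA1 (-0.28), CDKN1A (-0.71), EPCAM (-0.31), ERBB2 (-0.71), ETV4 (-0.42), ITGB4 (-0.92), MX1 (-1.35), PCNA (-0.55), RFC3 (-0.54) and RNA28SN1, RNA28SN2 and RNA28SN3 (-0.72 each). On TPM rescaled without tail-less genes 222 repeats were the same and 2 reversed, MX1 at -0.61 and ITGB1 at 0.031. ITGB1, with no call, was at 0.0052 with a minimum of 1 CPM. ITGB4, with no call, was at -0.0293 with DESeq2, -0.0298 with RLE scaling, -0.0304 with tail-less genes removed, -0.0336 with no filter, -0.0081 over all 12 libraries and at -0.21 without the length trend. Leaving out 1 library gave -0.015 to 0.27 for ERBB2, -0.21 to 0.089 for ITGB1, -0.18 to 0.099 for ITGB4, -1.86 to 0.80 for MX1 and -0.66 to 1.15 for the RNA28SN genes, which reversed without A549 library 1. The difference in the ribosomal RNA share ran from -0.718 to 5.78 percentage points, and was negative without A549 library 1. As shares of TPM, differences were 49.3 points for all classes, 31.3 for RNase P and MRP, 10.01 for small nucleolar RNAs, 4.59 for 7SK and 7SL, 2.66 for histones, 0.429 for spliceosomal RNAs, 0.123 for miRNAs, 0.113 for Y, vault and telomerase RNAs and 0.0092 for MALAT1 with NEAT1. Libraries of equal number share only that number (their deviations from the group means correlated at -0.0918, -0.0629 and 0.114), and with the replicate number as a block 11300 genes were called (6004 and 5296), 8272 for the difference between cultures, and MX1 was at -0.37. Of 41 list medians 12 changed sign under some alternative. PLK3 lost its call without MDA-MB-231 library 1 or 3. Apart from the TPM scale and the removals named, the cause was not tested. The shallowest library held 5609327 counts, and genes under about 1 CPM there rest on few reads.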

Other observations

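Genes normally restricted to germ cells or fetal tissue were switched differently in the lines, with 15 of 32 members tested, 6 called higher in A549 and 8 in MDA-MB-231. PRAME, a cancer-testis antigen, stood at 219, 237 and 263 CPM in A549 and at 0 in MDA-MB-231, at least 4493-fold higher. IGF2BP1, a fetal RNA-binding protein gene, stood at 147, 83.2 and 113 CPM against 0, 0.0477 and 0 CPM. MAGEC1 (29, 32.3 and 32.7 CPM) and PAGE5 (12.1, 14.9 and 14.3 CPM), both of the X chromosome, were seen in MDA-MB-231 and were at 0 in A549.

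Receptor tyrosine kinases outside the ERBB family were divided 9 to 11 among 21 tested of 31. FGFR4, a fibroblast growth factor receptor, stood at 79.9, 65.5 and 76.8 CPM in A549 against 0.943, 0.524 and 0.599 CPM (6.81 ± 0.20 SE), and the pseudokinase PTK7 at 0.579, 0.188 and 1.16 CPM against 205, 204 and 205 CPM (-7.84 ± 0.23 SE). TGF-beta and BMP genes were divided 14 to 12 among 29 tested of 31. BAMBI, a decoy receptor, stood at 175, 191 and 175 CPM against 7.93, 6.15 and 6.88 CPM, and ID2, a target of BMP signals, at 103, 105 and 88 CPM against 0.236, 0.238 and 0.399 CPM. The ligand gene INHBA was at 0 in A549 and at 10.6, 10.2 and 12.2 CPM in MDA-MB-231. Among Wnt and Notch genes 11 were higher in each line of 26 tested, with NOTCH3 at 45, 25 and 37.2 CPM against 0.157, 0.191 and 0.15 CPM, and the ligand WNT5B at 0.463, 0.188 and 0.281 CPM against 15.4, 15.9 and 16.2 CPM.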
